A study of Mus musculus with 14 samples.

Results

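The 59 genes described here are the protein-coding chemokines and chemokine receptors of the mouse, 37 ligands, 18 signalling receptors and 4 atypical receptors, out of 51912 gene rows per file. They were taken by symbol: Ccl, Cxcl, Cx3cl and Xcl genes with a number for the ligands, and Ccr, Cxcr, Cx3cr, Xcr and Ackr genes with a number for the receptors. RNA of the left liver lobe was sequenced from 14 untreated mice aged 20 weeks, with 1 library per animal. All mice carried floxed alleles of Tet2, whose enzyme oxidizes methylcytosine, and their genotype was Tet2fl/fl in every group. The 4 controls were cre- littermates, which one label calls healthy and WT while their genotype is given as Tet2fl/fl. The 5 asymptomatic mice and the 5 mice with spontaneous autoimmune hepatitis (AIH) were Tet2fl/fl vav cre+, so these groups share a genotype and differ in disease. The Vav promoter drives cre in blood-forming cells and their progeny, so that a whole-liver library mixes cells with and without the deletion. The study's title ties Tet2 loss to translocated gut bacteria and to hepatitis with Tc1 (type 1 cytotoxic T) cells, and leukocyte recruitment is what these genes serve.

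Chemokines are small secreted or membrane-tethered proteins that steer leukocytes through G protein-coupled receptors. In the liver, sinusoidal endothelium, stellate cells, macrophages and hepatocytes make chemokines, and the receptors sit mainly on blood-derived cells. Atypical receptors bind chemokines without G protein signalling, and take them up or move them across cells.

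Gene totals ran from 16.0 to 18.9 M counts per library (M, mega). By Xist and Y-linked genes, the controls were 2 females with 2 males, the asymptomatic mice 5 males, and the AIH mice 4 females with 1 male (AIH 4), so group and sex are entangled. AIH livers carry the library numbers 11 to 15 and all other livers 1 to 10, so any effect of that order and AIH cannot be told apart. Unaligned reads were 3.23% to 6.54% of a file in AIH and 4.93% to 9.27% in asymptomatic animals. Hepatocyte markers summed to 113500 to 153900 CPM in controls, 116600 to 143200 in asymptomatic and 84240 to 162400 in AIH livers. AIH 1, 2, 4 and 5 lay below every control and asymptomatic library, and AIH 3 above them all. At an adjusted p under 0.05, 1 of these 6 markers was lower in AIH against controls and 3 against asymptomatic animals. Tet2 stood at 8.53 to 11.98 CPM in controls, 4.77 to 9.24 in asymptomatic and 7.34 to 15.4 in AIH livers; whole-gene counts from whole liver do not check the deletion. Levels are CPM (counts per mega-counts of a library) scaled by TMM, and in each sentence they follow the animals' numbers, which are in accession order and pair no animals. Differences are log2 fold changes ± SE from edgeR's quasi-likelihood test, with p-values adjusted over the 14638 genes tested and a threshold of 0.05. In bulk tissue, more cells of a type and more RNA per cell cannot be told apart.

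AIH livers held more chemokine and chemokine receptor RNA than either other group, and no tested member fell. Of the 59 genes, 33 passed the filter on low counts: 18 of 37 ligands, 11 of 18 receptors and 4 of 4 atypical receptors. Of the 26 others, 5 had 0 counts in all 14 libraries, and 16 of the 21 with counts had more in AIH than in both other groups together. The share of all untested genes that did so was not computed. Some of the 16, among them Ccl11, Ccl20 and Cxcl3, had most of their AIH counts in 1 library. Against controls, 22 of the 33 rose, where 15.6% of all tested genes did, and 0 of 33 fell, where 6.08% of all genes did. By role, 10 of 18 ligands, 10 of 11 receptors and 2 of 4 atypical receptors rose. For 17 of the 33 every AIH library lay above every control (13.2% of all genes). Against asymptomatic animals, 23 of 33 rose (19.1% of all genes) and 0 fell (10.7%), again 10 ligands and 10 receptors, with 3 atypical receptors. Every AIH library lay above every asymptomatic one for 18 of 33 (12.3% of all genes). The median log2 fold change over the 33 was 2.12 against controls and 2.11 against asymptomatic animals, while over all tested genes it was -0.01 and -0.03. Scaling by library totals alone moved the median of all genes to 0.14 and 0.17 and the split of all calls from 2284 higher of 3174 to 2675 of 2979 against controls, and from 2796 of 4355 to 3533 of 3975 against asymptomatic animals, while the members called were again all higher (24 and 28). The comparisons share the AIH libraries.

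The filter bears on these counts, because Ccl3, Ccl4, Ccl8, Ccr1, Ccr7, Cxcr2 and Xcr1 passed it only through AIH libraries. For all of these every AIH library lay above every control, and for all but Ccr7 above every asymptomatic one. The counts without overlap and the medians include these members and were not recomputed without them. Among the 26 members that pass without AIH libraries, 15 rose against controls (12.7% of the 13555 such genes) and 16 against asymptomatic animals (15.7%). With the unaligned share as a term, 7 members rose against asymptomatic animals, as did 544 of all 14638 tested genes. With sex as a term 13 members rose there, as did 1222 of the 14638 genes. Calls lost with that term included Ackr1, Ackr2, Ackr3, Ccl3, Ccl4, Ccl6, Cxcl14, Cxcl9 and Cxcr2 (adjusted p = 0.0605 to 0.451). Within males AIH 4 stands alone, so the number of calls there is not given. Ccl5, Ccl8, Ccr2, Cx3cr1, Cxcr4 and Cxcr5 were called in both comparisons under each alternative in which they were tested, as were Xcr1 against controls and Cxcl16 against asymptomatic animals. The heat map by library shows tested members, and the plot of fold changes sets the comparisons side by side.

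**Figure D1:**
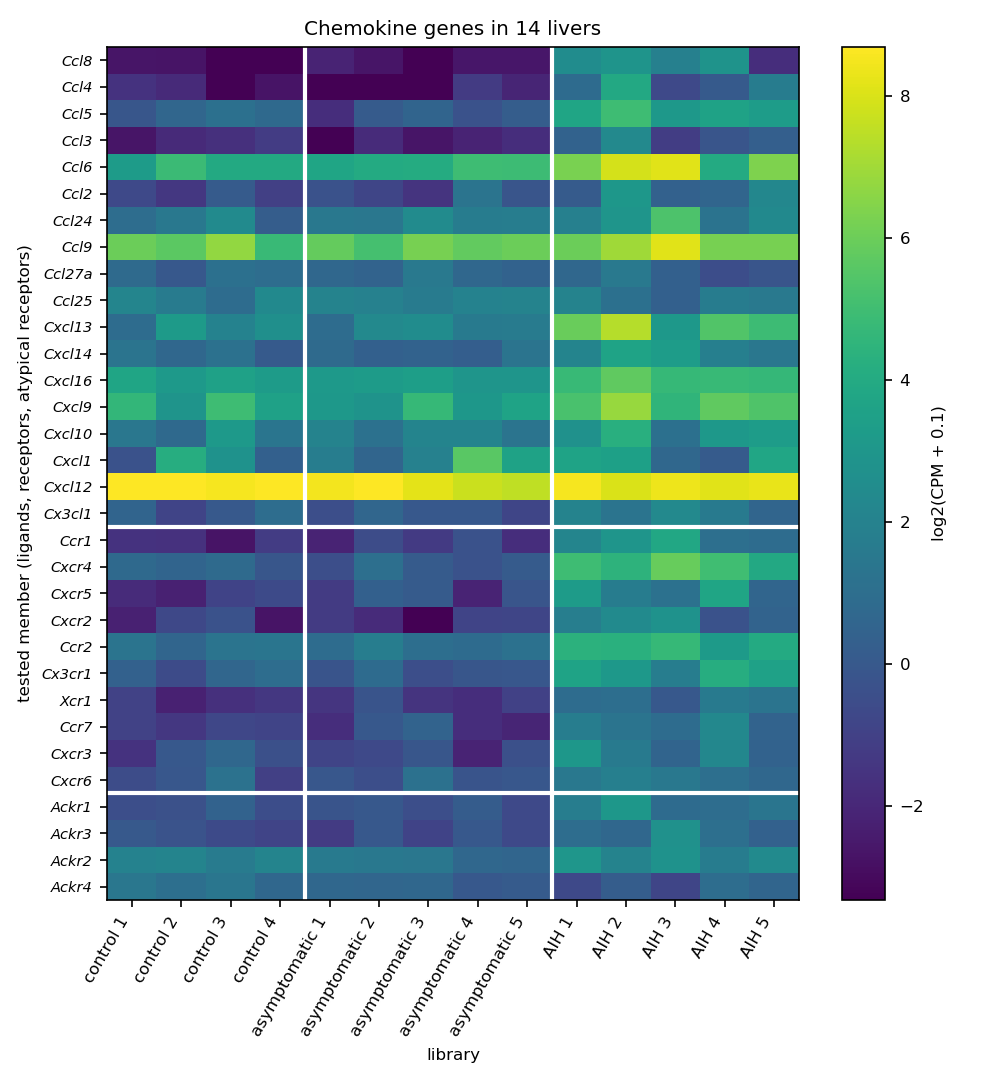
Levels of 32 tested members in each of the 14 libraries, as log2(CPM + 0.1) on the colour scale, with ligands, receptors and atypical receptors separated by white rows and the groups by white columns. Ccl8, Ccl4, Ccr1, Cxcr4 and Cxcr5 are dark in the 9 control and asymptomatic libraries, while Cxcl12 is bright in all 14.

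**Figure D2:**
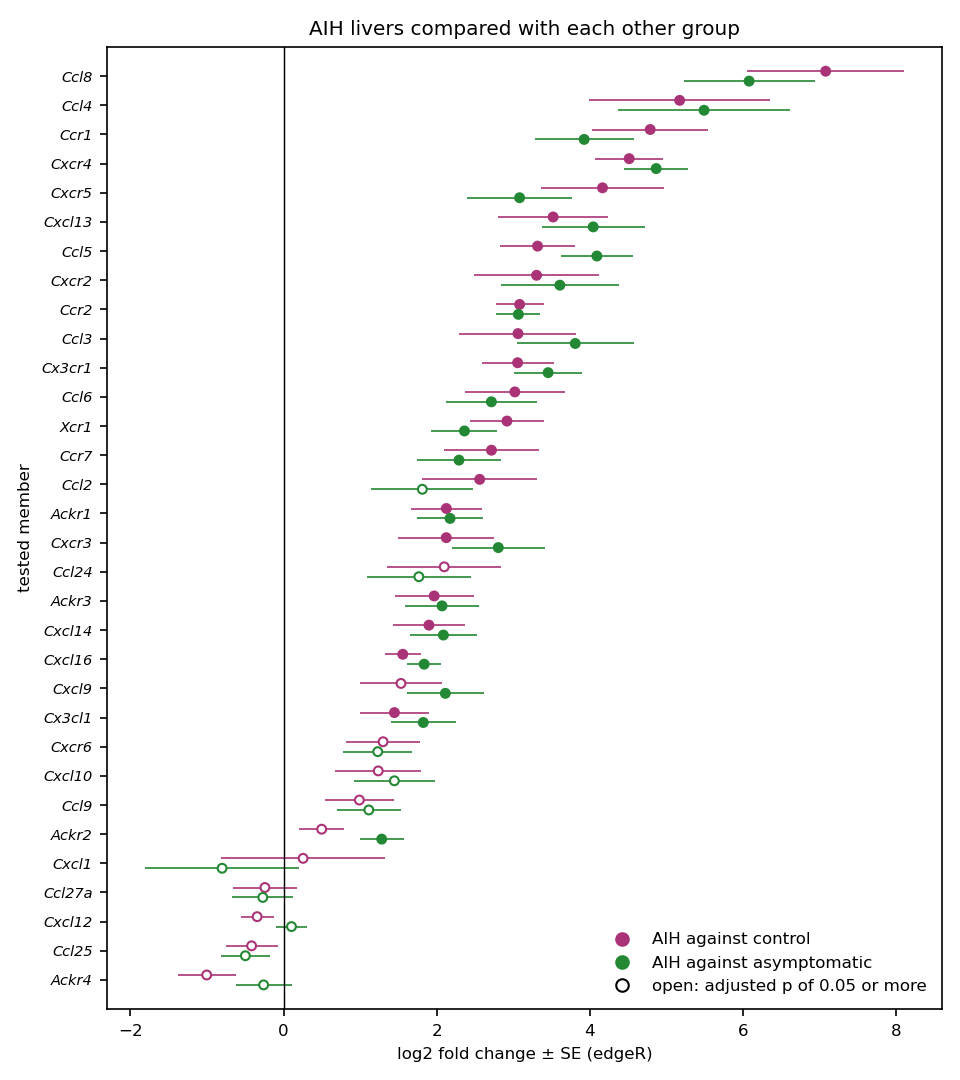
Log2 fold change ± SE of 32 tested members in AIH livers against controls and against asymptomatic livers, with filled points for an adjusted p under 0.05. Ccl8 has the highest value in both comparisons (7.08 and 6.08), and 21 and 22 of the 32 points are filled.

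The receptor with the smallest p was Cxcr4 (ENSMUSG00000045382, chr1:128588199-128592293, GRCm38), which guides haematopoietic and immune cells towards CXCL12. Cxcr4 stood at 1.64, 1.36, 1.69 and 0.838 CPM in controls, 0.650, 2.0, 1.004, 0.711 and 0.998 in asymptomatic animals and 30.6, 21.4, 59.0, 32.3 and 15 in AIH animals. All 5 AIH animals lay above the 9 others, with AIH 3 highest and AIH 5 lowest. Cxcr4 rose by 4.51 ± 0.44 (adjusted p = 1.81e-05) against controls and by 4.87 ± 0.41 (adjusted p = 4.64e-06) against asymptomatic animals.

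Its ligand Cxcl12 was not called in either comparison. Cxcl12 stood at 406, 404, 367 and 412 CPM in controls, 361, 408, 295, 208 and 183 in asymptomatic animals and 367, 256, 337, 287 and 317 in AIH animals. Cxcl12 was the member with the highest level per length in controls, 48.6 RPKM (counts per kilobase of exons, scaled as CPM) against 38.2 in AIH. All AIH libraries lay below the lowest control, by 366.5 against 367.1 CPM at the closest. The difference was -0.35 ± 0.22 (adjusted p = 0.281) and against asymptomatic animals 0.10 ± 0.20 (adjusted p = 0.73). In asymptomatic animals the level was spread widely, from 183 to 408 CPM. Ackr3 stood at 0.935, 0.735, 0.545 and 0.447 CPM in controls, 0.325, 0.882, 0.439, 0.905 and 0.532 in asymptomatic animals and 1.87, 1.51, 6.59, 1.96 and 1.21 in AIH animals. Ackr3, the atypical receptor that scavenges CXCL12, rose by 1.97 ± 0.52 (adjusted p = 0.0141) and 2.07 ± 0.48 (adjusted p = 0.00541) in these comparisons. AIH 3 was set apart at 6.59 CPM, and without it the log2 fold changes were 1.29 and 1.39; without control 4 the call against controls was lost (adjusted p = 0.051).

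Ccr2 (ENSMUSG00000049103, chr9:124101950-124113557), which brings monocytes out of the marrow and into tissue, rose in every AIH animal. Ccr2 stood at 2.40, 1.41, 2.40 and 2.46 CPM in controls, 1.82, 3.29, 1.95, 1.75 and 2.13 in asymptomatic animals and 20.7, 19.5, 26.2, 9.18 and 16.3 in AIH animals. The groups did not overlap: even AIH 4, the lowest AIH animal, lay above all 9 others. Ccr2 rose by 3.08 ± 0.31 (adjusted p = 1.97e-05) against controls and by 3.07 ± 0.29 (adjusted p = 6.43e-06) against asymptomatic animals.

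Among the CCR2 ligands, Ccl2 (chr11:82035571-82037453) was the one that passed the filter. Ccl2 stood at 0.526, 0.283, 0.981 and 0.391 CPM in controls, 0.715, 0.471, 0.251, 2.39 and 0.798 in asymptomatic animals and 1.01, 7.97, 1.22, 1.40 and 4.65 in AIH animals. AIH 2 and AIH 5 were high, and the 3 other AIH animals were close to the highest control. Ccl2 rose against controls by 2.56 ± 0.75 (adjusted p = 0.025), a call that was lost without AIH 2 (1.92, adjusted p = 0.0743), without control 1, 2 or 4 (adjusted p = 0.0647 to 0.0743) and with sex as a term (adjusted p = 0.0701). Against asymptomatic animals, where asymptomatic 4 was high, it gave 1.81 ± 0.66 (adjusted p = 0.0525) and was called without asymptomatic 4 (2.53, adjusted p = 0.0161) or without AIH 1, 3 or 4 (adjusted p = 0.0359 to 0.0436). Ccl7 and Ccl12, which share the receptor, fell under the filter: Ccl7 had 14 counts over the controls and 85 over the AIH libraries, 59 of them in AIH 2, and Ccl12 had 1 and 48, 27 of them in AIH 2. Pooled over libraries, the AIH to control ratio was 4.48 (exact 95% interval 2.53 to 8.55) for Ccl7 and 35.5 (exact 95% interval 6.07 to 1429) for Ccl12, where the intervals cover counting error only. Without AIH 2 these ratios were 1.74 for Ccl7 and 19.7 for Ccl12.

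The list of monocyte markers (Ly6c2, Lyz2, Chil3, Itgam and Plac8) rose in 5 of 5 members with Ccr2. Its summed level was 73.7 to 150 CPM in controls and 92.1 to 141 in asymptomatic animals, and 607, 1142, 769, 516 and 460 in AIH 1 to 5. The sum was highest in AIH 2 and lowest in AIH 5, whereas Ccr2 was highest in AIH 3 and lowest in AIH 4. The part of these markers in the Ccr2 result was not tested.

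Ccr1, an inflammatory receptor of neutrophils, monocytes and eosinophils, answers to CCL3 and CCL5 among others. Ccr1 stood at 0.234, 0.226, 0.0545 and 0.335 CPM in controls, 0.130, 0.588, 0.314, 0.711 and 0.200 in asymptomatic animals and 4.27, 7.58, 14.6, 2.01 and 1.77 in AIH animals. Ccr1 rose by 4.79 ± 0.75 (adjusted p = 0.000487) and 3.92 ± 0.65 (adjusted p = 0.000481), with no overlap and with AIH 3 the highest; without AIH 3 the values were 4.16 and 3.29.

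Of these and the related ligand Ccl4, Ccl5 (ENSMUSG00000035042, chr11:83525778-83530518), made by cytotoxic T and natural killer cells, was high in every AIH animal. Ccl5 stood at 0.818, 1.47, 2.07 and 1.62 CPM in controls, 0.195, 1.0, 1.38, 0.711 and 1.07 in asymptomatic animals and 13.4, 31.2, 8.45, 12.1 and 9.70 in AIH animals. Even AIH 3, the lowest AIH animal, lay well above the highest control, and AIH 2 stood apart at 31.2 CPM. Ccl5 rose by 3.32 ± 0.49 (adjusted p = 0.000292) and 4.09 ± 0.47 (adjusted p = 2.74e-05). Ccl4 stood at 0.234, 0.170, 0 and 0.0559 CPM in controls, 0, 0, 0, 0.323 and 0.133 in asymptomatic animals and 1.73, 15.2, 0.525, 0.951 and 3.18 in AIH animals. Ccl4 rose by 5.17 ± 1.18 (adjusted p = 0.00624) and 5.49 ± 1.124 (adjusted p = 0.00232), but 313 of its 438 AIH counts came from AIH 2, and the pooled AIH to control ratio fell from 40.4 (exact 95% interval 20.3 to 94.2) to 14.7 without that library. Ccl4 without asymptomatic 4 gave 6.80 against asymptomatic animals. Ccl3 stood at 0.0585, 0.170, 0.218 and 0.335 CPM in controls, 0, 0.177, 0.0628, 0.129 and 0.200 in asymptomatic animals and 1.25, 4.86, 0.350, 0.783 and 1.16 in AIH animals. Its rise was 3.06 ± 0.76 (adjusted p = 0.0105) and 3.81 ± 0.76 (adjusted p = 0.00203), with 100 of 169 AIH counts in AIH 2 and a pooled ratio of 4.63 without that library.

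Ccl6 and Ccl9, rodent chemokines of myeloid cells that act on CCR1, were among the most abundant members. Ccl6 stood at 9.41, 28.5, 15.4 and 15.8 CPM in controls, 13.3, 16.1, 16.6, 31.0 and 29.9 in asymptomatic animals and 76.6, 242, 285, 16.1 and 82.1 in AIH animals. AIH 2 and AIH 3 reached the highest levels, while AIH 4, the male, lay within the range of the controls. Ccl6 rose by 3.02 ± 0.66 (adjusted p = 0.00459) and 2.71 ± 0.59 (adjusted p = 0.00356); within males the values were 0.35 and -0.41 with no call. Ccl9 stood at 63.2, 49.8, 107 and 28.4 CPM in controls, 57.5, 34.7, 73.5, 55.2 and 63.8 in asymptomatic animals and 64.4, 124, 279, 73.8 and 74.3 in AIH animals. Ccl9 was high in every group, with AIH 3 far above the other AIH animals, and it was not called: 0.99 ± 0.45 (adjusted p = 0.133) against controls and 1.11 ± 0.42 (adjusted p = 0.0571) against asymptomatic animals. The latter passed without control 3 or without AIH 1, 4 or 5 (adjusted p = 0.0386 to 0.0469). The neutrophil and precursor markers were likewise highest in AIH 3 and AIH 2 and lowest in AIH 4, at 319, 1210, 1257, 19.8 and 93.2 CPM summed in AIH 1 to 5 against 1.71 to 8.40 in the 9 others. Their part in the Ccl6 values was not tested.

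The highest fold change was that of Ccl8 (ENSMUSG00000009185, chr11:82115185-82116799), a macrophage chemokine that acts on CCR8 in the mouse. Ccl8 stood at 0.0585, 0.0565, 0 and 0 CPM in controls, 0.130, 0.0588, 0, 0.0646 and 0.0665 in asymptomatic animals and 5.62, 7.24, 3.67, 7.11 and 0.202 in AIH animals. It had 2 counts over the 4 controls, 5 over the 5 asymptomatic livers and 460 over the AIH livers, a pooled AIH to control ratio of 169.8 (exact 95% interval 46.8 to 1407). The 4 other AIH animals reached 3.67 to 7.24 CPM, while AIH 5 stayed at 0.202. This is above the highest other value of 0.130, but both values rest on few counts. Ccl8 rose by 7.08 ± 1.02 (adjusted p = 0.000251) and 6.08 ± 0.86 (adjusted p = 0.000141). The receptor Ccr8, known from regulatory and type 2 helper T cells, was untested, with 0 counts in all 9 control and asymptomatic libraries. Ccr8 stood at 1.78, 0.194, 0.350, 1.119 and 0 CPM in AIH animals, that is 67 counts, 37 of them in AIH 1. Set against a floor of 3 counts over the controls, this is at least 16.5-fold higher, and at least 9.43-fold without AIH 1. Ccl1, its other ligand, had 13 AIH counts, 11 of them in AIH 1, against 3 in controls.

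**Figure D3:**
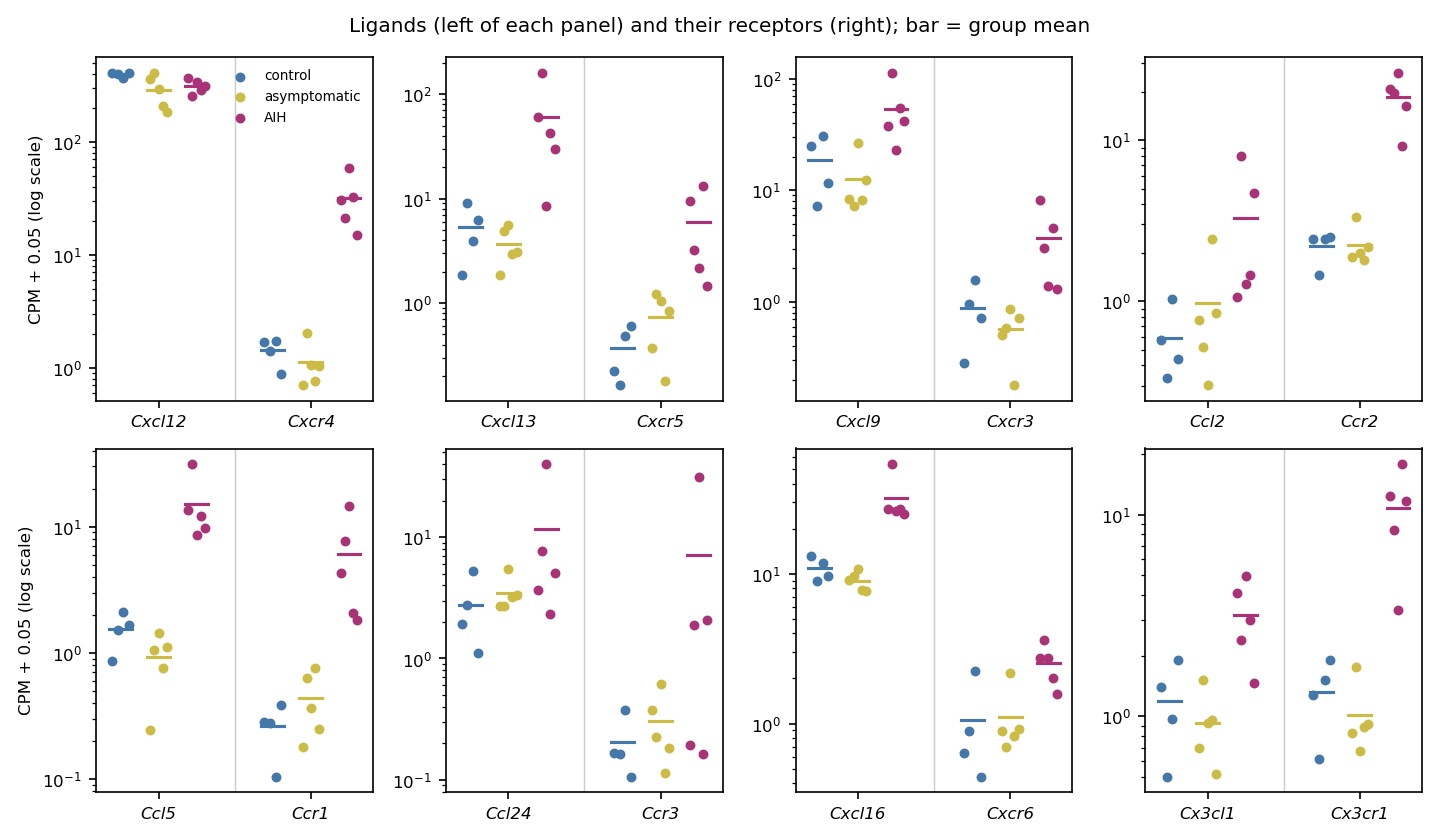
CPM + 0.05 on a log scale for 8 ligands (left of each panel) and their receptors (right), with 1 point per library and a bar at each group mean (4 controls, 5 asymptomatic, 5 AIH). Cxcr4 is higher in each AIH liver than in any other liver, Cxcl12 overlaps between AIH and asymptomatic livers, and in the panel of Ccl24 and Ccr3 a single AIH animal lies far above the rest.

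Cxcr3 marks activated T cells and natural killer cells and answers to the interferon-inducible ligands CXCL9 and CXCL10. Cxcr3 stood at 0.234, 0.904, 1.53 and 0.670 CPM in controls, 0.455, 0.529, 0.816, 0.129 and 0.665 in asymptomatic animals and 8.12, 3.01, 1.34, 4.59 and 1.26 in AIH animals. AIH 1 was highest and AIH 3 and AIH 5 fell below the highest control. Cxcr3 rose by 2.12 ± 0.63 (adjusted p = 0.0255) and 2.80 ± 0.61 (adjusted p = 0.00335), and the call against controls was lost without control 1, 2 or 4 (adjusted p = 0.0588 to 0.0717) and without AIH 1 (1.61, adjusted p = 0.0669).

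The member ligands Cxcl9 and Cxcl10 lie next to each other on chromosome 5 and had a substantial level in control livers. Cxcl11, also listed with Cxcr3, is annotated as a polymorphic pseudogene and so is no member. Its level was 0.526 to 5.12 CPM in controls, 1.18 to 3.45 in asymptomatic and 0.056 to 1.97 in AIH animals. Cxcl9 stood at 24.9, 7.24, 30.8 and 11.5 CPM in controls, 8.26, 7.18, 26.3, 8.14 and 12.4 in asymptomatic animals and 37.5, 113, 22.9, 54.1 and 41.6 in AIH animals. Cxcl10 stood at 2.63, 1.64, 8.88 and 2.46 CPM in controls, 4.03, 2.12, 4.20, 4.20 and 2.33 in asymptomatic animals and 6.63, 19.2, 2.04, 8.45 and 9.70 in AIH animals. AIH 2 was the highest animal for both, AIH 3 was the lowest of the AIH animals for both, and control 3 was the highest control for both. Cxcl9 gave 1.53 ± 0.53 (adjusted p = 0.0521) against controls, short of the threshold, and rose by 2.11 ± 0.50 (adjusted p = 0.00603) against asymptomatic animals, a call lost with sex as a term (adjusted p = 0.0605). Cxcl10 gave 1.24 ± 0.56 (adjusted p = 0.136) and 1.45 ± 0.53 (adjusted p = 0.0517). Without control 3 both passed against controls, at 1.88 for Cxcl9 (adjusted p = 0.0375) and 2.03 for Cxcl10 (adjusted p = 0.0196). Cxcl9 also passed there without AIH 3 or asymptomatic 3 (adjusted p = 0.0379 and 0.0338), and Cxcl10 passed against asymptomatic animals without control 3 or AIH 3 (adjusted p = 0.026 and 0.0177).

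The 250 bases before the annotated starts of the interferon-inducible pair, Cxcl9 at chr5:92328080-92328329 and Cxcl10 at chr5:92348890-92349139, are shown beside those of the ligands with the largest changes of the CC and CXC classes, Ccl8 at chr11:82114935-82115184 and Cxcl13 at chr5:95956689-95956938. The first pair lies on the minus strand and the second on the plus strand, and each is printed 5′ to 3′ in the direction of the gene (RefSeq, GRCm38.p6). Capitals mark matches to an NF-kappa-B-like motif (GGGANTTCC) or a motif like the interferon-stimulated response element (TTCNNTTTC), searched on both strands.
Cxcl9: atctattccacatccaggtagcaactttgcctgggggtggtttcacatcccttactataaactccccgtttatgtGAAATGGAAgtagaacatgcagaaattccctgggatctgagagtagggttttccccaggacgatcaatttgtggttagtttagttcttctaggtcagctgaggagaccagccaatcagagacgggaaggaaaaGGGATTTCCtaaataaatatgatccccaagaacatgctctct
Cxcl10: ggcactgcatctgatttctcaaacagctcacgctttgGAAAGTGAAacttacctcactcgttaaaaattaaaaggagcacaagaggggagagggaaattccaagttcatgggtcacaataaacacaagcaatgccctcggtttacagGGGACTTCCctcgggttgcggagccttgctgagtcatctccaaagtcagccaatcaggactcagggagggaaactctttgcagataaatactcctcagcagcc
Ccl8: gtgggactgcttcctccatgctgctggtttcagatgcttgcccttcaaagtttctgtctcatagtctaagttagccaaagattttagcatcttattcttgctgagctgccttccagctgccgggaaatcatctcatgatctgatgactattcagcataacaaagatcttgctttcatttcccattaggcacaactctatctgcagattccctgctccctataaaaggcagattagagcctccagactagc
Cxcl13: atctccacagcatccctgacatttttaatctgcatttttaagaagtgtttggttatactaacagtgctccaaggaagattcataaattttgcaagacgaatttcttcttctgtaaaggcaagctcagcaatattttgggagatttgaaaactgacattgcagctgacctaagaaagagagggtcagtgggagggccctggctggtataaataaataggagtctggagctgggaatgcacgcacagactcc

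Cxcl9 held GGGATTTCC 42 bases before its start and GAAATGGAA, a match on the other strand, 175 bases before it. Cxcl10 held GGGACTTCC at 103 and GAAAGTGAA at 213 bases. Ccl8 and Cxcl13 held neither in these windows. Of the 59 members, 45 had an entry in the promoter table, with 52 promoters in all. The NF-kappa-B-like letters were in 3 of these 52 (5.77%), those of Cxcl9, Cxcl10 and 1 of Ccr6, and in 1.43% of all 32851 promoters. The interferon-type letters were in 8 of 52 (15.4%), against 7.13% of all, and a STAT-like motif (TTCNNNGAA) was in 3 of 52 (5.77%), against 7.02%. Members with the interferon-type letters were Ccl3, Ccr2 and Cxcl14, which rose against controls, Cxcl9 and Cxcl10, which did not pass there, and Ccl1, Ccl19 and Cxcr1, which were not tested.

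Cxcl13 (ENSMUSG00000023078, chr5:95956951-95961068), the attractant that draws B cells into follicles, and its receptor Cxcr5 both rose. Cxcl13 stood at 1.81, 9.10, 3.92 and 6.20 CPM in controls, 1.82, 4.88, 5.59, 2.91 and 3.06 in asymptomatic animals and 60.5, 161, 8.39, 42.3 and 29.6 in AIH animals. AIH 2 held 3316 of the 6062 AIH counts, AIH 3 was the lowest AIH animal and lay below control 2. Cxcl13 rose by 3.52 ± 0.71 (adjusted p = 0.00292) and 4.04 ± 0.67 (adjusted p = 0.000514), and by 2.75 and 3.27 without AIH 2. Cxcr5 stood at 0.175, 0.113, 0.436 and 0.559 CPM in controls, 0.325, 1.18, 1.004, 0.129 and 0.798 in asymptomatic animals and 9.51, 3.21, 2.098, 13.3 and 1.41 in AIH animals. Cxcr5 rose by 4.16 ± 0.80 (adjusted p = 0.00205) and 3.08 ± 0.68 (adjusted p = 0.00383) with no overlap between groups. Receptor and ligand had their peaks in different animals: Cxcr5 was highest in AIH 4 and AIH 1, and Cxcl13 in AIH 2.

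The B cell markers (Cd79a, Cd79b, Ms4a1 and Cr2; 3 of 4 rose) summed to 94.1, 45.4, 17.1, 139.7 and 14.2 CPM in AIH 1 to 5, against 1.46 to 4.53 in controls and 1.29 to 12.2 in asymptomatic animals. This is the same order of animals as for Cxcr5 in AIH. The follicular stroma markers found in the files, Madcam1 and Coch, summed to 4.48 CPM in AIH 4 and to at most 0.340 CPM in the other 13 libraries. Their part in the Cxcl13 and Cxcr5 results was not tested.

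Ccr7, which leads naive T cells and migrating dendritic cells to lymphoid tissue, was highest in the same animals as Cxcr5. Ccr7 stood at 0.409, 0.283, 0.490 and 0.447 CPM in controls, 0.195, 0.882, 1.32, 0.194 and 0.133 in asymptomatic animals and 3.27, 2.38, 1.81, 4.81 and 1.31 in AIH animals. AIH 4 and AIH 1 led, and asymptomatic 3 reached the lowest AIH animal. Ccr7 rose by 2.71 ± 0.61 (adjusted p = 0.00583) and 2.29 ± 0.55 (adjusted p = 0.00651), the latter 2.90 without asymptomatic 3. Its ligands Ccl19, Ccl21a and Ccl21b are listed at 0 in all 14 libraries. Of their exonic 50-mers, 52.0% in Ccl19, 71.6% in Ccl21a and 100% in Ccl21b also occur in other annotated genes, so that reads of these genes may have gone uncounted and their level is uncertain. Ccr6, a receptor of B cells and T helper 17 cells, fell under the filter. Ccr6 stood at 0.117, 0, 0 and 0.279 CPM in controls, 0, 0.353, 0, 0 and 0 in asymptomatic animals and 3.79, 0.0972, 0.350, 6.10 and 0.101 in AIH animals. AIH 4 and AIH 1 held most of its 198 AIH counts, the pooled AIH to control ratio was 20.9 (exact 95% interval 9.95 to 52.6), or 11.5 without AIH 4, and its ligand Ccl20 had 6 AIH counts, all in AIH 4, and 0 in controls.

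Cx3cr1 (chr9:119901616-120069879), found on patrolling monocytes, tissue macrophages and cytotoxic lymphocytes, rose together with its membrane-bound ligand Cx3cl1. Cx3cr1 stood at 1.23, 0.565, 1.47 and 1.84 CPM in controls, 0.780, 1.71, 0.628, 0.840 and 0.865 in asymptomatic animals and 12.3, 8.31, 3.32, 17.7 and 11.7 in AIH animals. AIH 4 was highest and AIH 3 lowest, the reverse of their places for Ccr2, and no AIH library overlapped the others. Cx3cr1 rose by 3.06 ± 0.47 (adjusted p = 0.00041) and 3.45 ± 0.44 (adjusted p = 6.52e-05). Cx3cl1 stood at 1.34, 0.452, 0.926 and 1.84 CPM in controls, 0.650, 1.47, 0.879, 0.905 and 0.466 in asymptomatic animals and 4.03, 2.33, 4.90, 2.97 and 1.41 in AIH animals. Cx3cl1 rose by 1.45 ± 0.45 (adjusted p = 0.0319) and 1.82 ± 0.43 (adjusted p = 0.00536), with AIH 5 inside the range of both other groups. The call against controls was lost without control 1, 2 or 3 or without AIH 1 or 3, with adjusted p = 0.0592 to 0.089.

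Cxcl16 (chr11:70453983-70459984), a scavenger receptor and ligand made by macrophages and endothelium, had one of the narrowest spreads. Cxcl16 stood at 13.04, 8.87, 11.8 and 9.55 CPM in controls, 8.97, 9.59, 10.7, 7.69 and 7.59 in asymptomatic animals and 26.9, 53.9, 26.1, 27.0 and 25.1 in AIH animals. AIH 1, 3, 4 and 5 lay between 25.1 and 26.97 CPM and AIH 2 at 53.9, and every AIH animal was above every other. Cxcl16 rose by 1.56 ± 0.24 (adjusted p = 0.000381) and 1.84 ± 0.22 (adjusted p = 4.14e-05). Of its 50-mers, 16.9% are shared with the antisense gene Zmynd15. Cxcr6 stood at 0.585, 0.848, 2.18 and 0.391 CPM in controls, 0.845, 0.647, 2.13, 0.776 and 0.865 in asymptomatic animals and 2.69, 3.55, 2.68, 1.96 and 1.52 in AIH animals. Cxcr6, its receptor on tissue-resident T and natural killer T cells, gave 1.30 ± 0.49 (adjusted p = 0.0708) and 1.23 ± 0.45 (adjusted p = 0.0534), not called; control 3 and asymptomatic 3 lay inside the AIH range, and without control 3 the call was made (2.01, adjusted p = 0.00922). It was also made against controls without asymptomatic 3 (adjusted p = 0.047), and against asymptomatic animals without control 3, control 4, asymptomatic 3 or AIH 5 (adjusted p = 0.0143 to 0.0478).

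Xcr1, the receptor that defines cross-presenting dendritic cells, was low, and higher in every AIH animal than in any other. Xcr1 stood at 0.409, 0.113, 0.218 and 0.279 CPM in controls, 0.260, 0.765, 0.251, 0.194 and 0.399 in asymptomatic animals and 1.83, 1.94, 0.874, 2.85 and 2.32 in AIH animals. Xcr1 rose by 2.92 ± 0.49 (adjusted p = 0.000747) and 2.36 ± 0.43 (adjusted p = 0.00103). Its ligand Xcl1, made by natural killer and CD8 T cells, was untested with 62 counts in AIH and 12 in controls, a pooled ratio of 3.82 (exact 95% interval 2.04 to 7.78); 10.8% of its 50-mers are shared with an antisense transcript. Of 4 dendritic cell markers, 2 rose against controls and 1 against asymptomatic animals, and their sum was 6.14 to 10.9 CPM in controls, 9.24 to 14.1 in asymptomatic and 10.3 to 17.6 in AIH animals.

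Cxcr2, the receptor that brings neutrophils out of the marrow and to sites of injury, rose, while its ligand Cxcl1 was not called. Cxcr2 stood at 0.117, 0.509, 0.708 and 0.0559 CPM in controls, 0.325, 0.177, 0, 0.452 and 0.466 in asymptomatic animals and 3.41, 5.30, 6.82, 0.727 and 1.31 in AIH animals. AIH 1, 2 and 3 were high and AIH 4 was the lowest AIH animal, just above control 3. Cxcr2 rose by 3.30 ± 0.81 (adjusted p = 0.00957) and 3.61 ± 0.77 (adjusted p = 0.00301); without control 3 the first was 3.90, and with sex as a term the second was 1.28 (adjusted p = 0.381). Cxcl1 stood at 0.701, 17.8, 6.92 and 1.17 CPM in controls, 3.32, 1.41, 3.83, 48.7 and 12.04 in asymptomatic animals and 12.2, 11.1, 1.52, 1.01 and 13.7 in AIH animals. Cxcl1 varied more within each group than between groups, with asymptomatic 4 at 48.7 CPM the highest of all 14, and gave 0.26 ± 1.07 (adjusted p = 0.898) and -0.80 ± 1.01 (adjusted p = 0.579). The other Cxcr2 ligands among the members were untested: Cxcl2 had 8 counts in controls and 35 in AIH, Cxcl5 6 and 48, Cxcl3 0 and 22 of which 20 in AIH 1, and Cxcl15 had 0 counts in all 14 libraries. Of the 7 tested neutrophil and precursor markers, 7 rose against controls, with the sums by animal given above for Ccl6.

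Ccr3, the receptor of eosinophils, was found mostly in 1 animal. Ccr3 stood at 0.117, 0.113, 0.327 and 0.0559 CPM in controls, 0.325, 0.177, 0.565, 0.0646 and 0.133 in asymptomatic animals and 0.144, 1.85, 31.2, 0.112 and 2.02 in AIH animals. AIH 3 held 535 of 618 AIH counts (86.6%), AIH 2 and AIH 5 were near 2 CPM, and AIH 1 and AIH 4 lay within the range of the controls. The filter left Ccr3 out of the test, and the pooled AIH to control ratio was 41.5 (exact 95% interval 23.0 to 83.5), or 6.78 without AIH 3. Its ligands Ccl11 and Ccl24 were also highest in AIH 3. Ccl11 (eotaxin) had 53 of 57 AIH counts in AIH 3 and 0 in controls, which is at least 14.03-fold higher against a floor of 3 counts over the controls; the other AIH animals held 4 counts, near that floor. Ccl24 stood at 1.87, 2.71, 5.23 and 1.06 CPM in controls, 2.67, 2.65, 5.40, 3.17 and 3.26 in asymptomatic animals and 3.60, 7.63, 39.9, 2.29 and 5.05 in AIH animals. Ccl24 (eotaxin-2) gave 2.098 ± 0.74 (adjusted p = 0.0575) and 1.77 ± 0.68 (adjusted p = 0.0627), not called, and the pooled AIH to control ratio fell from 4.01 (exact 95% interval 3.44 to 4.69) to 1.72 without AIH 3. Ccl24 passed against controls without control 3 or AIH 1, 4 or 5 (adjusted p = 0.0244 to 0.0481), and against asymptomatic animals without AIH 1 or 4 (adjusted p = 0.043 and 0.0269). Ccl26 had 1 count in all 14 libraries together. The eosinophil markers Epx, Prg2 and Siglecf summed to 1161 CPM in AIH 3, to 5.05 to 28.2 in the other AIH animals and to at most 0.654 in the 9 others. Prg2 alone was at 969.7 CPM and Epx at 181 in AIH 3. Their part in the Ccr3 values was not tested.

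Of the tested chemokines Ccl25, Ccl27a and Cxcl14, the last, a chemokine of epithelia and stroma, rose. Cxcl14 stood at 2.34, 1.53, 2.12 and 0.950 CPM in controls, 1.69, 1.18, 1.26, 1.10 and 2.40 in asymptomatic animals and 4.23, 12.3, 9.79, 3.58 and 2.58 in AIH animals. Cxcl14 rose by 1.90 ± 0.47 (adjusted p = 0.00947) and 2.09 ± 0.44 (adjusted p = 0.00266), with AIH 2 and AIH 3 highest and all AIH animals above the rest. Ccl25, the thymic and intestinal ligand of CCR9, stood at 3.58 ± 1.47 CPM in controls (mean ± SD, n = 4) and 2.67 ± 1.10 in AIH (n = 5), a difference of -0.42 ± 0.34 (adjusted p = 0.417). Ccl27a, the skin ligand of CCR10, stood at 1.63 ± 0.507 and 1.37 ± 0.852 CPM, a difference of -0.24 ± 0.42 (adjusted p = 0.724); 45.0% of its 50-mers occur in near copies, and Ccl27b, at 0 counts, shares 98.1%. Ccl28 fell under the filter with 22 counts in controls and 13 in AIH. The receptors Ccr9 (26 and 39 counts) and Ccr10 (4 and 7) had pooled AIH to control ratios of 1.11 (exact 95% interval 0.657 to 1.90) and 1.29 (exact 95% interval 0.329 to 6.02), whose intervals include 1. Ccr4, of type 2 helper and regulatory T cells, had 5 and 28 counts, with ligands Ccl17 at 2 and 16 and Ccl22 at 20 and 51. Cxcl17 had 2 counts and Cxcr1 8 in the 14 libraries.

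Of the atypical receptors, Ackr1 and Ackr3 rose in both comparisons, Ackr2 in 1 and Ackr4 in 0. Ackr1 stood at 0.643, 0.678, 1.25 and 0.615 CPM in controls, 0.780, 0.882, 0.628, 1.03 and 0.532 in asymptomatic animals and 3.31, 8.12, 1.75, 1.85 and 2.48 in AIH animals. Ackr1, the Duffy receptor of venular endothelium and erythroid cells, rose by 2.13 ± 0.47 (adjusted p = 0.00482) and 2.17 ± 0.43 (adjusted p = 0.00196) with no overlap, and AIH 2 was far above the others. It shares 20.4% of its 50-mers with Cadm3 on the same strand. The erythroid markers (4 of 4 rose against controls, 2 against asymptomatic animals) summed to 476, 2388, 272, 87.9 and 1035 CPM in AIH 1 to 5, 87.6 to 279 in controls and 177 to 535 in asymptomatic animals. AIH 2 was the highest AIH animal for these too, while AIH 4 was lowest for the markers and AIH 3 for Ackr1. The marker sums of AIH 3 and AIH 4 lay within the control range, while their Ackr1 lay above every control. The part of these markers in the Ackr1 result was not tested.

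Ackr2 stood at 3.92, 4.24, 3.11 and 4.13 CPM in controls, 2.93, 2.71, 2.64, 1.49 and 1.40 in asymptomatic animals and 7.88, 3.99, 6.82, 3.25 and 5.25 in AIH animals. Ackr2, a scavenger of inflammatory CC chemokines, was lower in every asymptomatic animal than in any control, and higher in every AIH animal than in any asymptomatic one. It rose by 1.28 ± 0.29 (adjusted p = 0.00412) against asymptomatic animals, a call lost with sex as a term (adjusted p = 0.141), and gave 0.50 ± 0.30 (adjusted p = 0.259) against controls. Ackr4 stood at 2.57, 1.98, 2.51 and 1.51 CPM in controls, 1.495, 1.47, 1.51, 0.905 and 0.998 in asymptomatic animals and 0.528, 1.07, 0.466, 1.85 and 1.41 in AIH animals. Ackr4, which scavenges CCL19, CCL21 and CCL25, had the most negative value against controls, -1.004 ± 0.38 (adjusted p = 0.0716), and gave -0.26 ± 0.36 (adjusted p = 0.623) against asymptomatic animals. It was not called; AIH 4 and AIH 5 lay at or close to the control range, and without AIH 4 it was called lower (-1.28, adjusted p = 0.0222). Part of its exons overlaps the antisense gene Acad11, with which it shares 7.21% of its 50-mers.

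The comparison of asymptomatic with control livers bears on the deletion in the absence of disease. No member was called (0 of 33, and 0.0% of all tested genes by edgeR). At an unadjusted p under 0.05 there was 1 member, Ackr2, where 10.5% of all tested genes were. DESeq2 called 0 members and 118 genes, and limma-voom with quality weights 1 member, Ackr2 (adjusted p = 0.0491), and 1299 genes. The 4 members with the smallest p all had lower values in asymptomatic animals: Ackr2 -0.78 ± 0.30 (adjusted p = 0.426), Cxcl12 -0.45 ± 0.22 (adjusted p = 0.488), Ackr4 -0.74 ± 0.38 (adjusted p = 0.503) and Ccl5 -0.77 ± 0.48 (adjusted p = 0.589). For 2 of 33, Ackr2 and Ackr4, every asymptomatic library lay below every control (1.15% of all tested genes), for Ackr4 by the small margin of 1.506 against 1.508 CPM. The median over the 33 members was -0.12, and 14 of 33 had positive values. The asymptomatic animals were all male while 2 controls were female, so sex and group cannot be fully told apart here. Ccr2 stood at 2.17 ± 0.503 CPM in controls and 2.19 ± 0.636 in asymptomatic animals (mean ± SD, n = 4 and 5), a difference of 0.02 ± 0.30 (adjusted p = 0.987), and Cxcr4 at 1.38 ± 0.390 and 1.07 ± 0.543, a difference of -0.35 ± 0.43 (adjusted p = 0.797).

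The AIH animals differed from each other in which chemokine genes they held. AIH 2 was the highest AIH animal for 11 of 18 tested ligands: Ccl2, Ccl3, Ccl4, Ccl5, Ccl8, Ccl27a, Cxcl9, Cxcl10, Cxcl13, Cxcl14 and Cxcl16. Among the receptors it led for Cxcr6. AIH 4, the only male, led for 0 ligands and for 4 receptors, Ccr7, Cx3cr1, Cxcr5 and Xcr1. AIH 3 led for Ccr1, Ccr2, Cxcr2 and Cxcr4 among the receptors and for Ccl6, Ccl9, Ccl24 and Cx3cl1 among the ligands. AIH 5 was the lowest of the 5 for 6 of 11 receptors. The highest AIH animal exceeded the lowest by 1.43-fold for Cxcl12 and 2.15-fold for Cxcl16, but by 17.7-fold for Ccl6, 19.2-fold for Cxcl13, 29.0-fold for Ccl4 and 35.9-fold for Ccl8. The lowest Ccl8 value among them, that of AIH 5, rests on few counts. T cell markers (7 of 7 rose) summed to 72.4, 45.0, 16.0, 69.7 and 8.99 CPM in AIH 1 to 5, against 2.81 to 5.53 in the 9 others, and Kupffer cell markers (5 of 5 rose) to 1427, 3274, 1156, 686 and 2445 CPM, against 297 to 630. Sinusoidal endothelial markers (0 of 5 called) stayed within 233 to 356 CPM in all 14 libraries. The plot of shares over the AIH animals shows these patterns gene by gene.

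**Figure D4:**
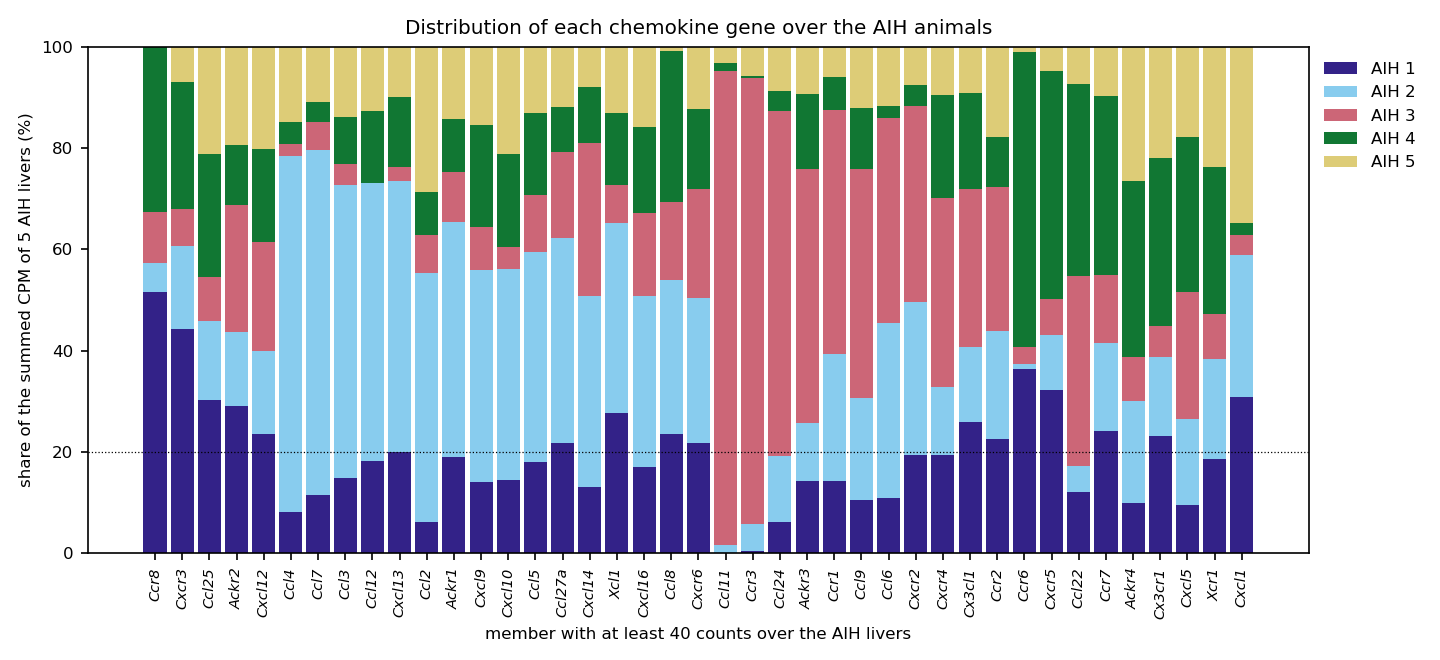
Share of the summed CPM of the 5 AIH livers held by each animal, for 41 members with at least 40 counts over the AIH livers, ordered by the leading animal. The dotted line is the share of 20% that equal animals would each hold from the base; AIH 2 leads the block from Ccl4 to Cxcr6, and AIH 3 holds nearly all of Ccl11 and Ccr3.

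Per length of exons, the summed ligand level was 106 ± 15.7 RPKM in controls (SD, n = 4), 93.5 ± 9.10 in asymptomatic (n = 5) and 302 ± 147 in AIH animals (n = 5). The summed level of all receptors was 6.93 ± 1.34, 6.45 ± 1.05 and 46.4 ± 13.6 RPKM. Both sums were higher in every AIH animal (174.5 to 524 and 28.4 to 66.3) than in any other (at most 125 and 8.82). Cxcl12 held 46.7% ± 8.77 of the ligand level in controls and 15.1% ± 6.36 in AIH, while Ccl6 went from 9.06% ± 3.91 to 22.8% ± 13.3, Cxcl13 from 4.36% ± 2.61 to 17.05% ± 9.81 and Ccl5 from 1.46% ± 0.453 to 5.37% ± 1.87 (mean ± SD). Among receptors, Cxcr4 held 11.1% ± 3.17 in controls and 36.1% ± 9.09 in AIH, and Ackr2 18.5% ± 4.90 and 3.92% ± 1.53. These shares are descriptions and were not tested.

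**Figure D5:**
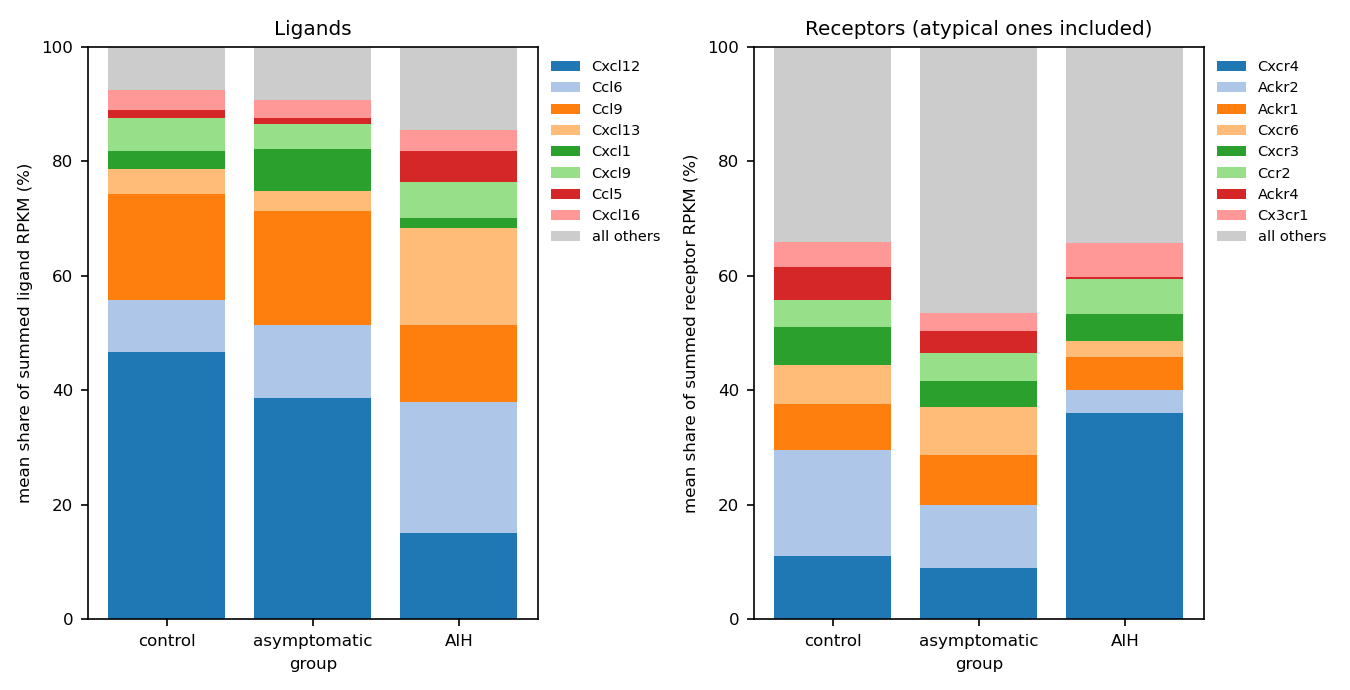
Mean share of the summed ligand RPKM (left) and receptor RPKM (right, atypical receptors included) held by 8 members with high shares in each class, by group (4 controls, 5 asymptomatic, 5 AIH), with all other members in grey. Cxcl12 shrinks from 46.7% in controls to 15.1% in AIH and Cxcr4 grows from 11.1% to 36.1%.

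Not all members that lie together on the genome were called. Ccl9 and Cxcr6 had positive values against controls (0.99 and 1.30), as their called neighbours had. In the CC cluster at chr11:83525778-83664683, Ccl5, Ccl6, Ccl3 and Ccl4 rose against controls and Ccl9 was not called. In the neighbouring cluster at chr11:82035571-82305690, Ccl2 and Ccl8 were the 2 of 6 members that passed the filter, and both rose. Among the receptor genes that lie together on chromosome 9, Xcr1, Ccr1 and Ccr2 rose, and Cxcr6 was not called. Of the 5 CXC ligands at chr5:90759360-90905938, Cxcl1 was the 1 tested gene and was not called, and the others fell under the filter. Exons of Cxcl10, Cxcr5, Ccl25, Ccl27a and Cx3cr1 overlap genes on the opposite strand (Art3, Bcl9l, Elavl1, Il11ra1 and Gm33858), whose reads cannot be told apart without strand.

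Genes that act with the chemokine system were counted in the same way. Of 33 genes of chemokine receptor signalling, 28 rose against controls and 1 fell, with a median log2 fold change of 1.85, beside 15.6%, 6.08% and -0.01 for all tested genes. Rac2, the haematopoietic GTPase of motile leukocytes, rose by 3.41 ± 0.32 (adjusted p = 1.48e-05) from 9.08 ± 4.37 to 96.4 ± 37.2 CPM, and Dock2, its exchange factor, by 2.52 ± 0.29 (adjusted p = 4.94e-05). Rgs1, which dampens chemokine receptor signals in lymphocytes, rose by 3.29 ± 0.60 (adjusted p = 0.00138). Dpp4, the peptidase that trims several chemokines, fell, with a difference of -0.72 ± 0.24 (adjusted p = 0.0416), from 178 ± 31.8 to 108 ± 38.1 CPM. Of 8 tested chemokine-related genes outside the symbol rule, 5 rose and 0 fell, among them the platelet chemokine Pf4 by 3.89 ± 0.57 (adjusted p = 0.000263) and Ppbp by 5.42 ± 0.97 (adjusted p = 0.00121). Of the megakaryocyte and platelet markers, which include Pf4, 3 of 3 tested rose; their part was not tested. Other chemoattractant receptors rose in 7 of 9 tested genes, for example Fpr2, a formyl peptide receptor, by 3.26 ± 0.69 (adjusted p = 0.00379). Of the cytokines that induce chemokines, 5 of 7 tested rose, with Tnf at 2.41 ± 0.58 (adjusted p = 0.00861) and Il1b at 2.99 ± 0.80 (adjusted p = 0.0159), and Ifng fell under the filter, at 0.144, 0.0972, 0, 0.280 and 0 CPM in AIH 1 to 5. Interferon gamma response genes rose in 6 of 10, with Irf8 at 2.47 ± 0.23 (adjusted p = 1.39e-05), and Irf1, a direct target, at 0.65 ± 0.32 (adjusted p = 0.164), not called. The lists were chosen with results of these data known, so their direction is not independent evidence.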

How the data were processed

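Total RNA of 14 livers was sequenced, and the authors deposited 1 file per animal with unnormalized counts per Ensembl gene. Per the submitters' processing notes, which give no role or order, the tools were HISAT2 2.1.0 and HTSeq 0.9.0, cutadapt 1.12 and FastQC 0.11.5, and R 4.0 with edgeR, and the builds GRCh38 and GRCm38; the gene identifiers are those of the mouse. The annotation release and strand setting are not given in the sources used here, so antisense pairs cannot be separated. The last 5 rows of each file, which name no gene, were left out (unaligned reads are given as their share of the file).

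Identifiers were matched to GENCODE vM21 (GRCm38), in which 51633 of 51912 were found. Genes were kept by filterByExpr (a CPM of 0.562 in 4 libraries, 14638 genes), scaled by TMM and fitted over the 3 groups with edgeR 4.0.16 (quasi-likelihood, R 4.3.3) with no covariate, and p-values were adjusted by Benjamini-Hochberg. DESeq2 1.42.0 and limma 3.58.1 (voom with quality weights), other scalings and filters, sex or unaligned share as terms, single sexes and each left-out library were alternatives. The fits were tested on simulated counts. Pooled ratios of summed counts carry exact conditional binomial 95% intervals for counting error only, with a floor of 3 counts over a group. Labels name 1 animal per library; no pair of libraries agreed within sampling noise. Levels between genes were compared as RPKM over union exonic length. Shared 50-mers are exact matches between a member's exons and other annotated genes.

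Members, gene lists and tests were chosen with earlier results of these data known. Values in every library were given for the 14 called members with the smallest p against controls, any called member that was lower, the 4 members with the smallest p between asymptomatic and control livers, and the receptors and tested ligands of 16 listed pairs, some of these by group means. Ccl9 and Cxcl14 fall outside this rule and were chosen after their values were seen. Some genes, although counted among the members, are not reported here by name. No protein comparison was made. Figures were drawn with matplotlib 3.10.9.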

Additional observations from a re-analysis of the deposited data

Results flagged for a closer look

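By Dixon's test at the 95% level, 1 library stood apart within its group in 22 of 99 groups of values from 33 members. For normally distributed values chance alone flags about 1 in 20 groups, or 4.95 here. The test was run on unlogged CPM, some of them near 0, so this number may not hold. Values within a library are also not independent. AIH 2 was far above the other AIH animals for Ackr1 (8.12 CPM), Ccl3 (4.86), Ccl4 (15.2), Ccl5 (31.2) and Cxcl16 (53.9). AIH 3 was for Ackr3 (6.59 CPM), Ccl9 (279), Ccl24 (39.9) and Ccr3 (31.2). Asymptomatic 2 was high for the receptors Ccr2 (3.29 CPM), Ccr6 (0.353), Cx3cr1 (1.71) and Cxcr4 (2.0), and it also had the highest B cell marker sum of its group, 12.2 CPM. Asymptomatic 3 was high for Ccl24 (5.40 CPM), Cxcl9 (26.3) and Cxcr6 (2.13), and asymptomatic 4 for Ccl2 (2.39) and Cxcl1 (48.7). Control 3 was high for Ackr1 (1.25 CPM) and Cxcl10 (8.88) and low for Cxcl12 (367), and control 2 was low for Ccr2 (1.41).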

How the results depend on the processing

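Of the members that rose, 7 against controls and 7 against asymptomatic animals kept their call under each alternative in which they were tested. The number called against controls was 18 to 26 with 1 library left out, where 2350 to 3425 of all tested genes were called. Under the other alternatives the number was 16 to 28, where 1746 to 3792 of all tested genes were called. Within males AIH 4 is the only AIH animal and is assumed to vary like the rest, so no count is given there. Against asymptomatic animals it was 19 to 27 with 1 library left out, 13 with sex as a term, 7 with the unaligned share as a term, 11 within males and 22 to 28 otherwise. Between asymptomatic animals and controls it was 1 with limma-voom and 0 under every other alternative, leaving out 1 library included. No called member changed direction against controls. Direction changed against controls for Ackr2 within males (-0.31), Ccl25 and Ccl27a within females (0.066 and 0.069), and Cxcl1 with sex as a term (-0.24), within females (-0.36), without control 1 (-0.133), control 4 (-0.109) or AIH 5 (-0.034; -0.133 to 1.415 with 1 library left out). Against asymptomatic animals it changed for Ackr4 with sex (0.035) or unaligned share (0.016) as a term and within males (0.53), Ccl24 with sex (-0.014) and within males (-0.58), Ccl25 with sex (0.061), Ccl6 within males (-0.412), Cxcl1 without asymptomatic 4 (0.625; -1.104 to 0.625 with 1 library left out), and Cxcl12 with the unaligned share (-0.34), within males (-0.021) and without asymptomatic 5 (-0.025; -0.025 to 0.256 with 1 library left out). The cause of these changes was not tested. No paired analysis was possible because the replicate numbers follow accession order and pair no animals. Ccl3, Ccl4 and Ccl8 fell under the filter in some fits with a library left out. With no filter, Ccl11, Ccl12, Ccr3, Ccr6, Ccr8 and Cxcl5 were also called against controls. At 16.0 to 18.9 M counts per library, 1 count is about 0.05 to 0.07 CPM, and 26 of 59 members fell under the filter.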
